A study of Mus musculus with 8 samples.

Results

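The genes described here fold, check and export secreted and membrane proteins in the endoplasmic reticulum. They are 40 mouse genes in 9 roles: 6 stress sensors and transcription factors, 9 chaperones and cofactors, 2 lectin chaperones, 5 disulfide enzymes, 4 genes of degradation, 3 of the signal recognition particle, 3 of the translocon, 4 of its associated TRAP complex and 4 of signal peptidase. Members were found through the array annotation. A probe set, the group of short probes that reads 1 transcript on the array, was taken where it carried a single gene symbol. Of the 40 genes, 38 had such a probe set, 84 probe sets in all. Srp54a and Sec61g were carried only by probe sets shared among several genes and have no value here. Of the 84 probe sets, 68 passed the filter on low values and were tested, covering 37 of the 40 genes and 37 of the 7825 genes tested on the array. The 16 left out included the single probe set of Atf6.

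The samples were lymph node cells of B10.BR mice, an inbred laboratory strain, sorted by flow cytometry. The groups were naive mice (3 arrays), mice 7 days after immunization (3 arrays) and mice 28 days after immunization (2 arrays). The labels name no immunogen, no age, no genetic modification and no marker used in the sort, and do not say that replicates came from separate animals, so p-values cover only the spread from array to array, which may be technical. The scaling of the deposited values was inferred from the values themselves. Each deposited value was read as a ratio of the expression level to the median of its probe set across all 8 arrays. A floor was taken to stand in for medians below it. Values are given as log2 ratios. For 63 of the 68 tested member probe sets 0 is the probe set's own median, while for the other 5 (of Ern1, Atf4, Dnajc3, Sdf2l1 and Canx) it is the floor, which lies above the median. Levels of different genes cannot be compared, and a change near background is understated. In RNA from many cells, fewer cells of a type and less RNA per cell cannot be told apart.

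Proteins bound for secretion are met by the signal recognition particle as they leave the ribosome and are threaded through the Sec61 channel into the endoplasmic reticulum. There signal peptidase removes the leader peptide, chaperones and disulfide enzymes fold the chain, and chains that fail are sent back for degradation. When unfolded chains accumulate, the sensors IRE1 (Ern1), PERK (Eif2ak3) and ATF6 start the unfolded protein response, through the factors XBP1, ATF6 and ATF4. In lymphoid tissue the system is best known from plasma cells, whose antibody output depends on XBP1.

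ATF6 and XBP1 act partly through the endoplasmic reticulum stress element (ERSE), which is CCAAT, then 9 bases of any kind, then CCACG. In the 250 bases before the annotated start, on either strand, 8 of the 33 members with an entry in the RefSeq promoter table (GRCm38.p6) held an ERSE (24.2%), against 35 of 27025 genes in the whole table (0.13%). They were the chaperone genes Hspa5, Dnajc3, Creld2 and Hsp90b1, the lectin chaperone genes Calr and Canx, the disulfide isomerase gene Pdia6 and the ubiquitin ligase gene Syvn1. Their matches are shown because few other promoters hold one, and because the member called on day 7 is among them. The members were chosen as genes of this pathway, so the shares describe the list and test nothing. Each line reads 5′ to 3′ on the strand of the gene with 15 bases on either side of the match, and capitals mark the CCAAT and CCACG ends, or their complements CGTGG and ATTGG where the element lies on the opposite strand.
Hspa5, chr2:34772010-34772058, plus strand: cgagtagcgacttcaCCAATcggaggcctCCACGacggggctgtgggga
Dnajc3, chr14:118937812-118937860, plus strand: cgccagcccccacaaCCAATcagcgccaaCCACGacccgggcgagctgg
Creld2, chr15:88819505-88819553, plus strand: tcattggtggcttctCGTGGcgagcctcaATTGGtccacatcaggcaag
Hsp90b1, chr10:86705518-86705671, minus strand: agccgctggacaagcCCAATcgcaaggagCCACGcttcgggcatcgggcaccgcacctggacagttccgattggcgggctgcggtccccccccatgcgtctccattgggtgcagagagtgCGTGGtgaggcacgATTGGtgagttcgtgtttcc
Calr, chr8:84847060-84847108, minus strand: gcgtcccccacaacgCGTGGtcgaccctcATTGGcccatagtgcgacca
Canx, chr11:50325785-50325833, minus strand: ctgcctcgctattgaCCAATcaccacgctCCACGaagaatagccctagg
Pdia6, chr12:17266476-17266524, plus strand: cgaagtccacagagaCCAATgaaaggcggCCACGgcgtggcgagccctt
Syvn1, chr19:6046517-6046565, plus strand: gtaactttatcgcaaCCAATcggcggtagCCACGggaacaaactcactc

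Hsp90b1 held 2 matches in opposite orientations, and the other 7 genes held 1 each. The matches began between position -212 (Hsp90b1) and position -44 (Syvn1), counted from the start. The related ERSE-II (ATTGG, 1 base of any kind, then CCACG) was found in 1 member, Herpud1, and in 10 genes of the table (0.037%). Herpud1 was also the 1 member with the core of the ATF4 element, TGATGNAA, which 1056 genes held (3.91%). The XBP1 element TGACGTGG was found in 0 members and in 163 genes (0.603%). ERSE and ERSE-II share their CCACG end but did not overlap in any member. A match is a run of letters and does not show that a factor binds there.

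**Figure D1:**
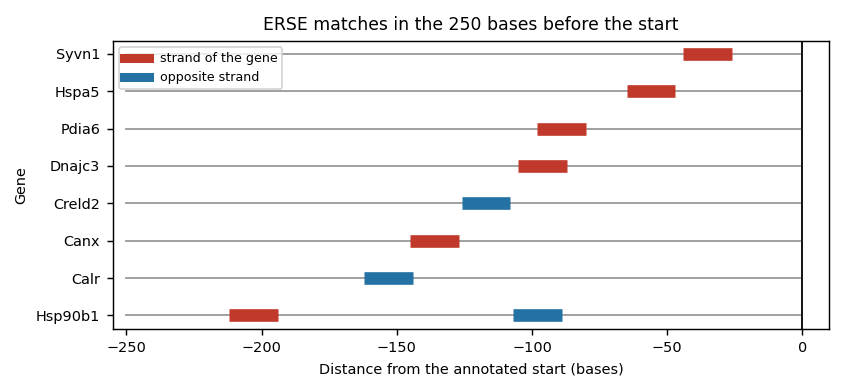
Position of each ERSE match in the 250 bases before the annotated start of the 8 member genes that hold one, in bases from the start (0), with red for the strand of the gene and blue for the opposite strand. Matches run from -212 in Hsp90b1 to -44 in Syvn1, and Hsp90b1 is the gene with 2.

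The 8 arrays fell into separate sets by 18 spike-in controls, foreign transcripts added at hybridisation. The median log2 ratio of these controls was -1.70 to -1.03 on naive replicate 1 and the 3 day 7 arrays, and 0.64 to 1.41 on naive replicates 2 and 3 and the day 28 arrays. The former are named low and the latter high spike-in arrays below. Along the leading principal component, which held 43.65% of the variance, naive replicate 1 lay at -44.5, near the day 7 arrays (-71.7 to -55.4), while the other naive arrays lay at 64.5 and 85.4. Day 28 against day 7 coincides wholly with this split, as does day 7 against naive once naive replicate 1 is left out, and there the split and the group cannot be told apart. Role medians and the main day 7 differences are therefore also given against naive replicate 1 alone or without it. Cell markers differed between groups as well. B cell markers, 6 of 8 tested, had a median of 2.57 and 2.62 on the day 28 arrays against -0.17 to -0.04 on the others, and proliferation markers, 7 of 8 tested, had 1.30 to 1.94 on day 7, -1.02 to -0.47 in naive and -0.32 and -0.09 on day 28. Plasma cell markers (5 of 8 tested) had medians of -0.78 to -0.06 in naive, -0.21 to 0.17 on day 7, and 0.03 and -0.05 on day 28. Their median day 7 difference was 0.90 (0.69 for the members), 1.06 without naive replicate 1 and -0.02 against it. Jchain, the joining chain of secreted antibody, differed by 2.31 (adjusted p = 0.196, limma), with all day 7 arrays above all naive ones, and the plasma cell factors Irf4 and Prdm1 by 1.30 and 0.90, while Sdc1 and Ell2 had -0.41 and -0.33. Prdm1 passed the filter on low values only through 2 day 7 arrays. Monocyte and macrophage markers (4 of 8 tested) had a median day 7 difference of 0.52, and Lyz2 differed by 4.23 on day 28 (adjusted p = 0.163, limma). T cell markers (7 of 8 tested) had medians of -0.20, 0.87 and 0.66 in naive, -0.56 to 0.67 on day 7, and -0.48 and 0.11 on day 28. Their median day 7 difference was -0.12 (3 positive, 5 negative), -0.39 without naive replicate 1 and 0.32 against it. Plasma cell, monocyte and macrophage, and T cell markers had 0 probe sets past the threshold in the 3 comparisons. The part of other cells in the members' values was not tested.

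On day 7 one member passed the test against naive. A probe set of Dnajc3, which encodes the cochaperone and PERK inhibitor p58IPK, rose 4.69-fold, and it fell again by day 28. The remaining tested probe sets did not pass. Over all 68, 51 differences were positive, with a median log2 difference of 0.69, against 55.96% positive and a median of 0.11 over the 13042 probe sets tested. The largest medians belonged to signal peptidase (2.19), the signal recognition particle (1.30) and TRAP (0.98), followed by the chaperones (0.58), and the translocon had 0.39. No test compared the roles, and their order changed with the naive arrays used.

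In limma with Benjamini-Hochberg adjustment over all 13042 probe sets, at adjusted p under 0.05, 1 of the 68 member probe sets was higher on day 7 and 0 were lower. The share of all probe sets called was 1.06% higher and 0.107% lower, so the members' count is near the background. At an unadjusted p under 0.05, 17 member probe sets were higher and 0 lower, against 12.4% and 3.08% of all. The 3 day 7 values lay above all 3 naive values for 16 member probe sets of 13 genes and below them for 1, against 13.4% and 8.61% of all. Without naive replicate 1, 18 member probe sets of 14 genes passed the threshold as higher and 0 as lower, against 11.6% and 1.62% of all. Against naive replicate 1 alone, within the low spike-in arrays, the median over the members was 0.19, with 42 of 68 positive, against 0.00 and 49.6% over all probe sets.

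**Figure D2:**
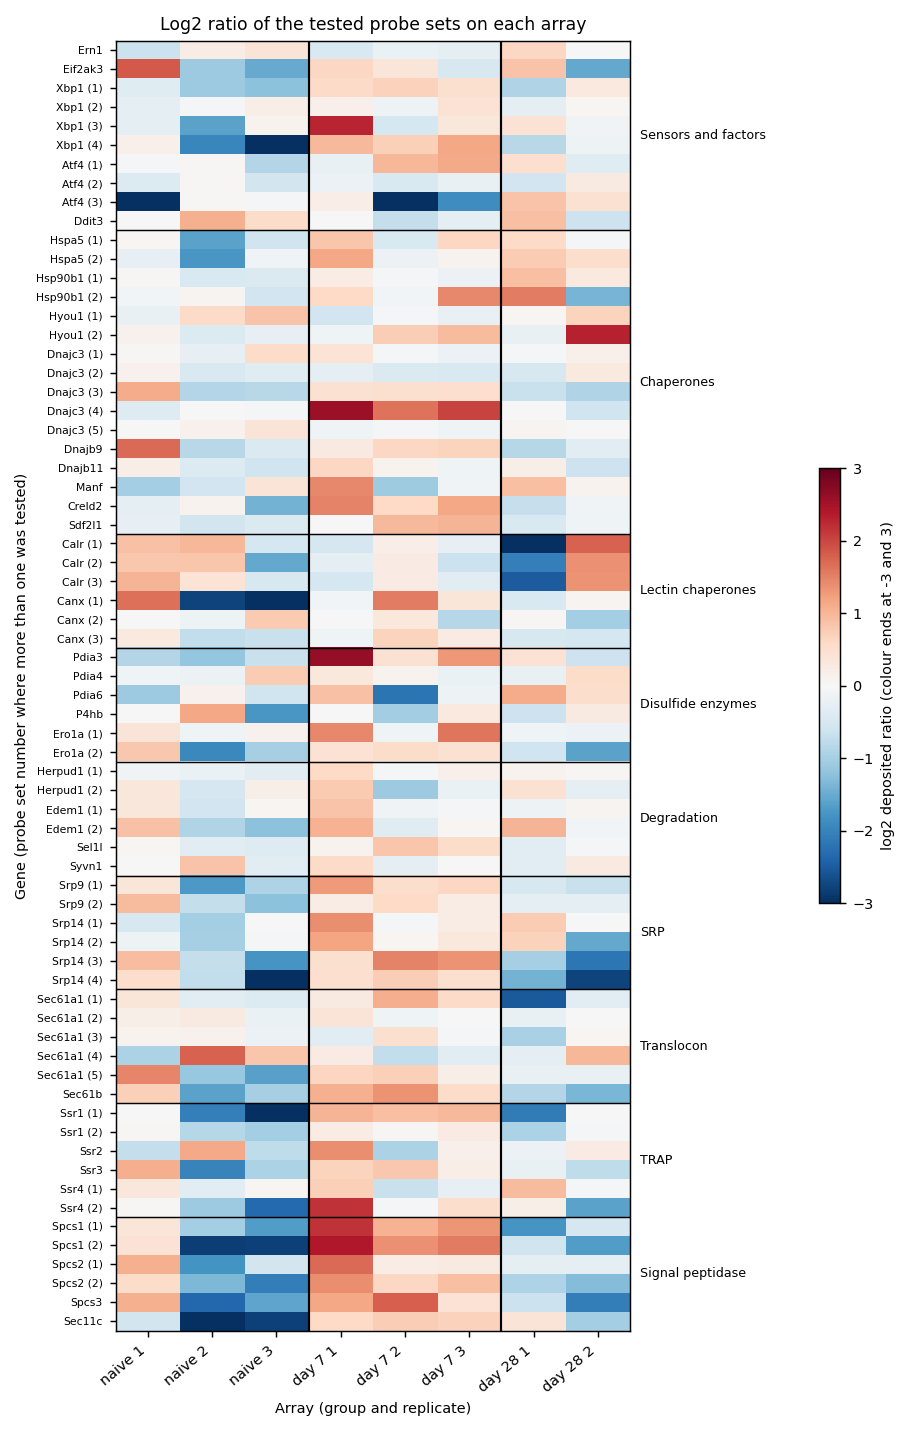
Deposited log2 ratio of the 68 tested member probe sets (rows, by role) on the 8 arrays (columns), with red above and blue below 0 (the probe set's own median in 63 rows, the floor in 5) and the colour ending at -3 and 3. In many rows naive replicate 1 is coloured like the day 7 arrays, and naive replicates 2 and 3 are the lowest array in 19 and 17 rows.

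Among the sensors, Ern1 encodes IRE1, the kinase and ribonuclease that splices Xbp1 mRNA. Its tested probe set read -0.66, 0.22 and 0.39 in naive, -0.46, -0.20 and -0.26 on day 7, and 0.62 and 0.01 on day 28. The groups overlapped between naive and day 7, and the log2 difference was -0.29 ± 0.36 (SE; adjusted p = 0.706, limma). Both day 28 values lay above all day 7 values, which is also the spike-in split, since all 4 low spike-in arrays lay below the 4 high ones for this probe set. Eif2ak3 encodes PERK, the kinase that slows translation under stress. It read 1.84, -1.08 and -1.50 in naive, 0.62, 0.36 and -0.48 on day 7, and 0.86 and -1.53 on day 28. The naive arrays spanned more than the other groups, with replicate 1 the highest of all 8, and the day 7 difference was 0.41 ± 0.96 (SE; adjusted p = 0.851, limma). Atf6, the third sensor, was below the filter: its probe set read -0.54, -0.66 and -0.63 in naive, 0.36, -0.52 and -0.30 on day 7, and -0.58 and -0.60 on day 28. Day 7 replicate 1 was the 1 array above 0, and no test was made.

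Xbp1, the factor activated by IRE1, had 4 tested probe sets. Probe set 1437223_s_at read 0.14, -1.96 and -3.55 in naive, 0.96, 0.71 and 1.17 on day 7, and -0.84 and -0.16 on day 28. Every day 7 array lay above every other array, with a log2 difference from naive of 2.74 ± 0.82 (SE; adjusted p = 0.179, limma). Probe set 1420011_s_at also had every day 7 array above every other array. It read -0.36, -1.08 and -1.24 in naive, 0.58, 0.68 and 0.49 on day 7, and -0.90 and 0.29 on day 28. Its day 7 difference was 1.48 ± 0.39 (SE; adjusted p = 0.145, limma). All low spike-in arrays lay above all high ones for 1437223_s_at, but not for 1420011_s_at. These probe sets passed the threshold without naive replicate 1, at 3.70 (adjusted p = 0.00819, limma) and 1.74 (adjusted p = 0.0316, limma). Against naive replicate 1 alone the differences were 0.80 and 0.95. The remaining Xbp1 probe sets were less alike. Probe set 1420886_a_at read -0.30, -1.62 and 0.11 in naive, 2.27, -0.52 and 0.34 on day 7, and 0.43 and -0.12 on day 28, so that day 7 replicate 1 stood alone. Probe set 1420012_at stayed between -0.30 and 0.42 on all arrays. Pairwise Pearson correlations among the 4 ran from 0.06 to 0.89 over the 8 arrays, which share the spike-in split, and the array does not separate spliced from unspliced Xbp1.

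Atf4, the factor translated when PERK is active, gave 3 probe sets that did not follow each other (pairwise r from -0.53 to 0.32 over the 8 arrays). Probe set 1448135_at read -3.27, 0.04 and -0.04 in naive, 0.19, -4.28 and -1.85 on day 7, and 0.86 and 0.46 on day 28. Its 3 lowest arrays set its spread, and its day 7 difference was -0.89 ± 1.24 (SE; adjusted p = 0.738, limma). On those same arrays probe set 1438992_x_at was near or above 0, reading -0.03, 0.03 and -0.89 in naive, -0.23, 0.997 and 1.13 on day 7, and 0.49 and -0.37 on day 28. Probe set 1439258_at stayed between -0.58 and 0.27. Ddit3 encodes CHOP, a factor linked to cell death under prolonged stress. It read -0.01, 1.06 and 0.55 in naive, 0.01, -0.71 and -0.29 on day 7, and 0.90 and -0.62 on day 28. The groups overlapped, and its day 7 difference was -0.86 ± 0.47 (SE; adjusted p = 0.413, limma).

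The chaperones hold the 1 called member. Dnajc3 probe set 1449372_at read -0.39, -0.02 and -0.04 in naive, 2.57, 1.64 and 2.03 on day 7, and 0.02 and -0.60 on day 28. The day 7 arrays stood above every other array, naive replicate 1 included, and the low and high spike-in arrays overlapped. That overlap rests on naive replicate 1, the only low spike-in array outside day 7. The part of the split was not tested. The means were -0.15 ± 0.21 (SD, n = 3) in naive, 2.08 ± 0.47 (SD, n = 3) on day 7 and -0.29 ± 0.44 (SD, n = 2) on day 28. The log2 difference was 2.23 ± 0.34 on day 7 against naive (SE; adjusted p = 0.0347, limma), -2.37 ± 0.38 on day 28 against day 7 (SE; adjusted p = 0.0373, limma) and -0.14 ± 0.38 on day 28 against naive (SE; adjusted p = 0.998, limma). Against naive replicate 1 alone the day 7 difference was 2.47. Over 17 alternatives the day 7 difference ran from 1.98 to 2.47 and passed the threshold in 6, with adjusted p from 0.00322 to 0.172. The largest, 2.47, came from a term for the spike-in split and is the difference from naive replicate 1 alone. These alternatives are also not all separate, since using only the 2 groups and leaving out either day 28 array give the same fit for the day 7 difference. Leaving out any single array other than naive replicate 1 put its adjusted p above 0.05. The day 28 fall from day 7 ran from -2.73 to -2.06 over the same alternatives and also passed in 6, with adjusted p from 0.00530 to 0.225, and again no array but naive replicate 1 could be left out without losing the call.

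The other 4 tested probe sets of Dnajc3 did not pass in any of the 3 comparisons. Probe set 1433887_at read 1.11, -0.88 and -0.82 in naive, 0.45, 0.47 and 0.51 on day 7, and -0.66 and -0.91 on day 28, which is the order of the spike-in split. Without naive replicate 1 it passed as higher on day 7 (1.33, adjusted p = 0.0237, limma). In that fit it also passed as lower on day 28 against day 7 (-1.27, adjusted p = 0.0418, limma). Against naive replicate 1 alone it was lower by day 7 (-0.63). Probe sets 1419162_s_at, 1419163_s_at and 1449373_at had day 7 differences of -0.05, -0.15 and -0.29. Pairwise correlations among the 5 ran from -0.62 to 0.52 over the 8 arrays, and the mean of the 5 gave 0.48 (adjusted p = 0.380, limma over gene means). With all arrays, the rise thus passed the threshold in 1 of 5 probe sets annotated to the gene.

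**Figure D3:**
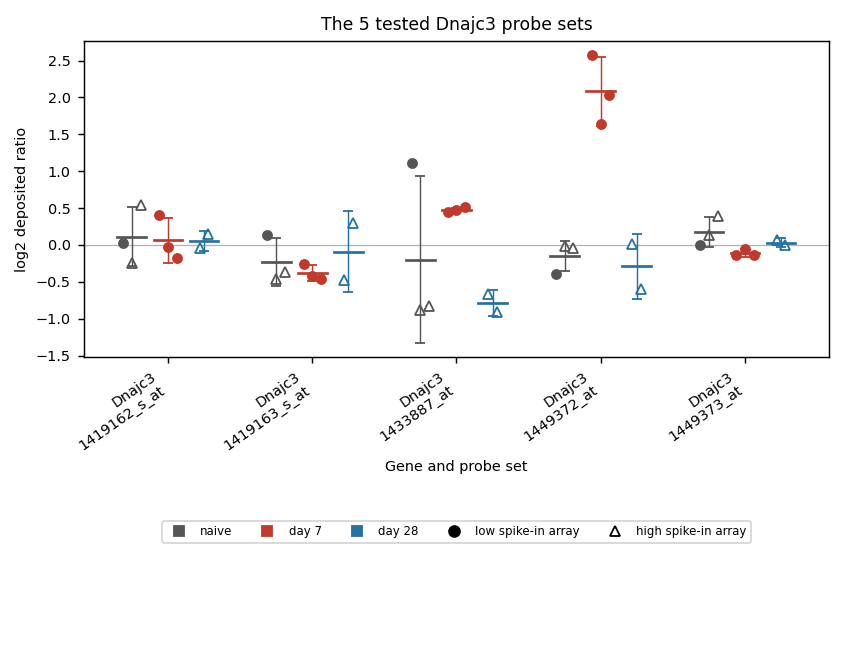
Log2 ratio on each array for the 5 tested Dnajc3 probe sets (points), with the group mean (line) and SD (bars) for naive (grey), day 7 (red) and day 28 (blue). Filled circles are low and open triangles high spike-in arrays. In 1449372_at the day 7 arrays lie at 1.64 to 2.57, above all others.

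Hspa5 encodes BiP, the main Hsp70 chaperone of the endoplasmic reticulum and the usual readout of the stress response. Probe set 1416064_a_at read 0.07, -1.62 and -0.61 in naive, 0.84, -0.45 and 0.62 on day 7, and 0.57 and -0.07 on day 28. Probe set 1427464_s_at read -0.25, -1.75 and -0.11 in naive, 1.15, -0.18 and 0.11 on day 7, and 0.77 and 0.53 on day 28. Both had naive replicate 2 lowest and day 7 replicate 1 highest, and they correlated at r = 0.89 over the 8 arrays. The day 7 difference was 1.06 in each, with SE 0.53 and adjusted p of 0.378 and 0.380 (limma), and naive and day 7 values overlapped. On day 28 the differences from naive were 0.97 and 1.35 (adjusted p = 0.947 and 0.804, limma), and for 1427464_s_at both day 28 arrays lay above all naive arrays.

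The other chaperones and cofactors did not pass. Creld2, a stress-induced protein with disulfide activity, read -0.26, 0.10 and -1.41 in naive and 1.49, 0.60 and 1.17 on day 7, a difference of 1.61 (adjusted p = 0.166, limma). Sdf2l1, which acts with BiP and J proteins, had a day 7 difference of 1.07 (adjusted p = 0.209, limma). Its ratio reached 1 on the 3 day 7 arrays only, so it passed the filter only through the group where it was high. For Creld2 and Sdf2l1 all day 7 arrays lay above all naive and all day 28 arrays. The difference from naive replicate 1 alone was 1.35 for Creld2 and 0.91 for Sdf2l1. Dnajb9, a J protein that represses IRE1, was highest on naive replicate 1 (1.71) and read 0.28 to 0.68 on day 7. Dnajb11 and the secreted factor Manf had day 7 differences of 0.48 and 0.49, and Manf ran from -1.06 to 1.45 within the day 7 arrays. Hsp90b1, the Hsp90 of the compartment, had 0.30 and 0.85 in its 2 probe sets. Hyou1, the nucleotide exchange factor of BiP, had -0.69 and 0.70 in its tested probe sets, opposite signs for one gene.

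The lectin chaperones calreticulin (Calr) and calnexin (Canx) hold glycoproteins by their sugars during folding. The 3 Calr probe sets followed each other (r from 0.89 to 0.98 over the 8 arrays) but not the groups. Probe set 1417606_a_at read 0.88, 1.005 and -0.53 in naive, -0.50, 0.21 and -0.24 on day 7, and -4.07 and 1.78 on day 28. The lowest and the highest of its 8 values were thus the 2 day 28 arrays, and the day 28 difference from naive was -1.60 ± 1.45 (SE; adjusted p = 0.998, limma). Canx probe set 1415692_s_at read 1.65, -2.79 and -3.24 in naive, -0.08, 1.54 and 0.37 on day 7, and -0.46 and 0.08 on day 28. Its day 7 difference was 2.07 (adjusted p = 0.436, limma) with all arrays, 3.62 (adjusted p = 0.00896, limma) without naive replicate 1 and -1.04 against naive replicate 1 alone, so the sign turned with the naive array used. All 6 probe sets of the role were lower on day 7 than on naive replicate 1, with a median of -1.04.

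Among the disulfide enzymes, Pdia3 works with calnexin and calreticulin on glycoproteins and on MHC class I. Its probe set read -0.89, -1.16 and -0.68 in naive, 2.64, 0.46 and 1.31 on day 7, and 0.44 and -0.63 on day 28. The groups did not overlap between naive and day 7, naive replicate 1 lay with the other naive arrays, and the difference was 2.38 ± 0.57 (SE; adjusted p = 0.114, limma). It was 2.36 against naive replicate 1 alone, the largest such difference among the members after Dnajc3 1449372_at. Ero1a, the oxidase that recharges the isomerases, had 0.84 and 1.18 in its 2 tested probe sets. The isomerases Pdia4, Pdia6 and P4hb had -0.07, 0.02 and -0.05, and P4hb ran from -1.74 to 1.15 within naive.

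The degradation genes gave the narrowest range of day 7 differences of the 9 roles, from -0.18 to 0.72. Herpud1, a membrane adaptor of the ligase complex, had 0.45 and -0.18 in its probe sets, and Edem1, which marks glycoproteins for disposal, 0.29 and 0.66. Sel1l, the scaffold of the ligase, had 0.72 (adjusted p = 0.313, limma) in the 1 of its 4 probe sets that was tested, with all day 7 arrays above all naive ones. Syvn1, the ligase itself, had -0.06.

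The signal recognition particle halts a nascent secretory chain and brings its ribosome to the membrane, and its subunits Srp9 and Srp14 form the part that pauses translation. All 6 of their probe sets had positive day 7 differences, from 0.69 to 2.06, and 0 passed (adjusted p from 0.219 to 0.548, limma). Srp9 probe set 1417530_a_at read 0.36, -1.73 and -0.93 in naive, 1.28, 0.52 and 0.63 on day 7, and -0.48 and -0.68 on day 28, a day 7 difference of 1.58. The role's median was 1.73 without naive replicate 1 and 0.31 against that array alone.

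The translocon was mixed. Sec61b, a small subunit of the channel, read 0.72, -1.62 and -0.997 in naive, 1.07, 1.35 and 0.54 on day 7, and -0.87 and -1.38 on day 28, with a day 7 difference of 1.62 (adjusted p = 0.258, limma). Naive replicate 1 lay inside the day 7 range. Sec61a1, the channel itself, had 5 tested probe sets with day 7 differences of 0.77, 0.00, 0.01, -0.82 and 0.94, and pairwise correlations from -0.80 to 0.85 over the 8 arrays.

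TRAP binds the channel and helps some chains to enter. Ssr1 probe set 1417763_at read 0.01, -2.05 and -3.08 in naive, 1.01, 0.90 and 0.98 on day 7, and -2.10 and -0.01 on day 28. All day 7 arrays lay above all others, and the difference was 2.67 ± 0.82 (SE; adjusted p = 0.189, limma). All 4 low spike-in arrays also lay above all 4 high ones. The difference was 3.53 (adjusted p = 0.0161, limma) without naive replicate 1 and 0.95 against it alone. Its second tested probe set had the same order (r = 0.98 over the 8 arrays) with 0.78. Ssr3 had 1.18, Ssr2 0.31, and Ssr4 -0.09 and 2.01 in its 2 tested probe sets, and none of them passed.

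Signal peptidase, which cuts the leader from entering chains, had the highest day 7 median of the 9 roles. Spcs1 probe set 1448258_a_at read 0.42, -2.83 and -2.81 in naive, 2.41, 1.38 and 1.57 on day 7, and -0.60 and -1.68 on day 28. Its difference of 3.52 ± 0.87 (SE; adjusted p = 0.123, limma) was the largest of the 68. Spcs1 probe set 1416220_at read 0.37, -1.02 and -1.68 in naive, 2.17, 1.04 and 1.32 on day 7, and -1.76 and -0.50 on day 28, with 2.29 (adjusted p = 0.145, limma). In both, naive replicate 1 lay between the day 7 arrays and the other naive arrays. Sec11c, the gene of a catalytic subunit, read -0.55, -3.28 and -2.81 in naive, 0.60, 0.74 and 0.69 on day 7, and 0.40 and -1.03 on day 28, with 2.89 ± 0.71 (SE; adjusted p = 0.123, limma). Spcs2 and Spcs3, accessory subunits, had 1.16 and 1.93, and 2.08. Spcs2 1423215_at and Spcs3 had naive replicate 1 inside the day 7 range (1.08 and 1.07), so 4 of the 6 probe sets did not overlap with naive. In every probe set of the role except that of Sec11c, all 4 low spike-in arrays lay above all 4 high ones. This held for 16.6% of all probe sets.

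Without naive replicate 1, 5 of the 6 signal peptidase probe sets passed on day 7 as higher, where 11.6% of all probe sets did and the comparison coincides with the spike-in split. They ran from 2.69 for Spcs2 1450907_at (adjusted p = 0.00865, limma) to 4.60 for Spcs1 1448258_a_at (adjusted p = 0.00528, limma). Against naive replicate 1 alone, differences ran from -0.34 (Spcs2 1423215_at) to 1.36 (Spcs1 1448258_a_at), with 5 of 6 positive and a median of 0.78. The proliferation markers, which were also high on day 7, had a median of 2.51 against the same array. Some of their probe sets passed the filter only through the day 7 arrays. The part of proliferation in these differences was not tested.

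**Figure D4:**
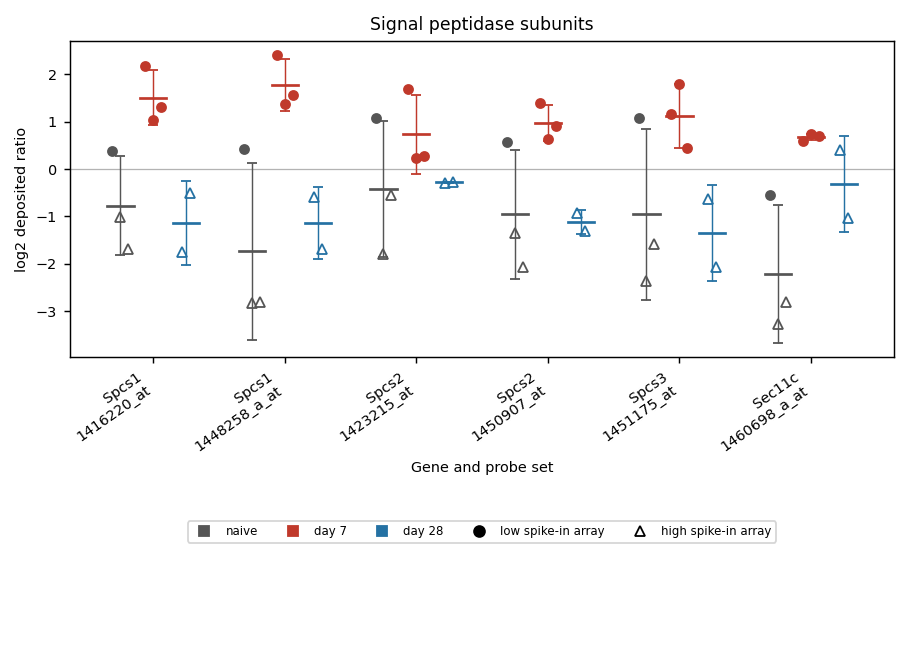
Log2 ratio on each array for the 6 tested signal peptidase probe sets (points), with the group mean (line) and SD (bars) for naive (grey), day 7 (red) and day 28 (blue). Filled circles are low and open triangles high spike-in arrays. All day 7 arrays lie above all day 28 arrays, and naive replicate 1, the grey filled circle, lies above the other naive arrays in each probe set.

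The choice of naive arrays moved every role. The median day 7 difference of signal peptidase was 2.19 with all naive arrays, 2.98 without replicate 1 and 0.78 against it, and that of the chaperones was 0.58, 0.87 and 0.15. For TRAP the values were 0.98, 1.57 and 0.49, for degradation 0.37, 0.49 and 0.01, and for the translocon 0.39, 0.53 and 0.10. The disulfide enzymes (0.43, 0.51 and 0.39) and the sensors and factors (0.30, 0.57 and 0.54) depended on it least. Over the low against high spike-in arrays, regardless of group, 21 member probe sets of 15 genes were higher on all 4 low arrays (30.9%), against 16.6% of all probe sets, and 2, of Ern1 and Hyou1, were lower on all 4, against 5.8%. A fit with the split as a term is given below, but its day 7 differences are those from naive replicate 1 alone. The part of the spike-in split in the day 7 differences was not tested further.

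**Figure D5:**
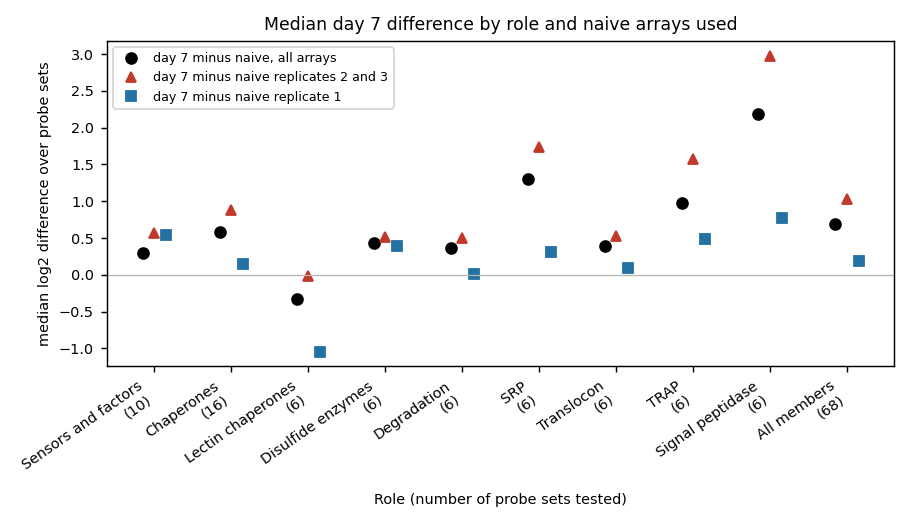
Median log2 difference of day 7 over the tested probe sets of each role (number in brackets), against all naive arrays (black circles), naive replicates 2 and 3 (red triangles) and naive replicate 1 alone (blue squares). Signal peptidase is the highest of the 9 roles in each series, at 2.19, 2.98 and 0.78, and the lectin chaperones the lowest.

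Counted by probe set, the members with an ERSE did not lead the day 7 differences. The 18 tested probe sets of the 8 genes had a median of 0.16, with 10 positive, and the 39 of members whose promoter held none had 0.92, with 32 positive. The called Dnajc3 probe set belongs to the first set, and the signal peptidase genes Spcs1 and Spcs2 to the second. Against naive replicate 1 alone the medians were -0.03 and 0.35. Genes with several probe sets weigh more in these medians, and Dnajc3 gave 5 of the 18, Calr 3 and Canx 3. As means of each gene's probe sets, day 7 differences were 1.61 for Creld2, 1.06 for Hspa5, 0.77 for Canx and 0.57 for Hsp90b1. They were 0.48 for Dnajc3, 0.02 for Pdia6, -0.06 for Syvn1 and -0.47 for Calr, against a median of 0.57 over all 37 genes. These comparisons are descriptions of the lists, and 7 members (Sec11c, Sec61a1, Ssr2, Hyou1, Manf, Atf6 and Spcs3) had no promoter entry.

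By day 28 no member differed from naive past the threshold. The median over the 68 probe sets was 0.07, with 40 positive, against -0.05 and 45.5% over all, and 0 member probe sets were called in either direction in limma (background 0.268% higher, 0.0537% lower). At an unadjusted p under 0.05, 2 were higher and 0 lower, against 3.13% and 3.21% of all. Both day 28 arrays lay above all naive arrays for 7 member probe sets and below for 0, against 7.76% and 9.88% of all. Within the high spike-in arrays, against naive replicates 2 and 3, the median was 0.30, with 50 of 68 positive, and 0.02 with 51.7% positive over all probe sets. The largest difference from naive in the full comparison was that of Sec11c, 1.90 ± 0.80 (SE; adjusted p = 0.775, limma).

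Against day 7, day 28 was lower for 50 of the 68 probe sets, with a median of -0.56 against -0.16 over all. One passed the threshold, Dnajc3 1449372_at, as lower, and 0 as higher (background 0.882% lower, 0.422% higher). At an unadjusted p under 0.05, 12 were lower and 0 higher, against 13.1% and 3.47% of all. Both day 28 arrays lay below all day 7 arrays for 27 probe sets of 19 genes and above for 5, against 29.7% and 15.2% of all. In signal peptidase all 6 were lower without overlap, with a median of -2.29 and a range from -2.92 to -0.99 (adjusted p from 0.119 to 0.580, limma). When naive replicate 1 was left out of the shared fit, 7 probe sets of 5 genes (Dnajc3, Srp14, Sec61b, Spcs1 and Spcs2) passed as lower and 0 as higher, against 5.35% and 0.859% of all. B cell markers were higher on day 28 in the same comparison, with 5 of 9 probe sets past the threshold. Among these, Blnk passed the filter on low values only through the 2 day 28 arrays. The part of B cells was not tested. Day 7 is common to this comparison and the first, so the fall and the rise of Dnajc3 share the 3 day 7 arrays.

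Other genes of the pathway, 84 listed with 70 tested through 113 probe sets, covered further regulators of the stress response, folding, degradation, glycosylation, targeting and vesicle transport. None of the 113 passed in either direction in limma in any comparison, while at an unadjusted p under 0.05 there were 17 higher and 2 lower on day 7, 2 and 2 on day 28 against naive, and 2 and 17 on day 28 against day 7. On day 7 this was 15% higher and 1.77% lower, against 12.4% and 3.08% of all probe sets. On day 28 it was 1.77% in each direction against naive, where all probe sets had 3.13% higher and 3.21% lower, and 1.77% higher and 15% lower against day 7, where all had 3.47% and 13.1%. Their median day 7 difference was 0.51, with 81 positive, against 0.11 and 55.96% positive over all probe sets, and it was -0.05 against naive replicate 1 alone. By group it was 0.70 for folding, 0.58 for degradation, 0.52 for glycosylation, 0.47 for vesicle transport, 0.27 for targeting and 0.05 for regulators of the stress response.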

How the data were processed

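Per the labels, total RNA of sorted lymph node cells was biotin-labelled and hybridised to Affymetrix arrays. GCRMA is the tool given in the submitters' processing notes. The deposited values are linear ratios, whose scaling to each probe set's median was inferred (47.88% of medians are 1 within 0.0015). Log2 ratios were fitted here with limma 3.58.1 in R 4.3.3, with 1 mean per group over the 8 arrays, empirical Bayes moderation, two-sided tests and Benjamini-Hochberg adjustment. Of 22626 probe sets without controls, 13042 (57.6%) reached a ratio of 1 or more on 2 or more arrays and were tested. The script was tested on simulated data. Probe sets, not genes, were the unit, and genes were named through the platform annotation. The number of arrays limits the precision. Every member probe set with 1 gene could be named, and called members, sensors, factors and Hspa5 were to be shown in full. The further members given on each array were chosen after their values were seen. Alternatives changed the filter, scaling, variance, arrays, weights, block and unit. Members and lists were chosen with earlier results of these data known.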

Additional observations from a re-analysis of the deposited data

How the results depend on the processing

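Under 18 alternatives no result changed sign among those past the threshold. The called member count for day 7 against naive (1) became 0 with trended and robust variance, with only the 2 groups, with the spike-in split as a term and over gene means, 26 with array weights (whose estimation stopped before convergence), and 0 to 18 leaving out each array in turn. All called probe sets (152) became 94 with no filter, 76 with a median ratio of at least 1, 54 with trended variance, 68 with 2 groups, 2935 with weights, 14 with the spike-in term, and 17 to 1727 leaving out arrays. For day 28 against naive, members stayed at 0, and all called (42) became 26 with the median filter, 19 with trended variance, 0 with 2 groups, and 2 to 57 leaving out arrays. For day 28 against day 7, called members (1) became 0 with the median filter, trended variance, the spike-in term and gene means, 5 with 2 groups, 9 with weights, and 0 to 7 leaving out arrays. All called (170) became 62 with the median filter, 257 with quantile normalization, 52 with trended variance, 591 with 2 groups, 1562 with weights, 0 with the spike-in term, and 25 to 810 leaving out arrays. The members' median for day 28 against day 7 became -0.34 with no filter, -0.28 with quantile normalization and 0.0605 with the spike-in term. On day 7 the median became 0.19 with the spike-in term, which is the difference from naive replicate 1 alone given above. With this term, day 28 against day 7 is separated from the split only through naive replicate 1 against the other naive arrays. The median and counts it gave there rest on that array and are no check of the comparison. The cause of these shifts was not tested.

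With the replicate number as a block, called members became 0 on day 7 and 0 for day 28 against day 7, and all called became 16, 9 and 15 in the 3 comparisons. Correlations of same-numbered deviations were -0.23, -0.36 and 0.10 between naive and day 7. They were 0.12 and 0.125 between naive and day 28, and 0.17 and 0.09 between day 7 and day 28. So few values cannot decide whether the numbers pair the arrays, and no label says that they do.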
